A study of Mus musculus with 12 samples.

Results

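Col5a1, Col6a4, Col14a1, Col15a1 and Col19a1 are 5 collagen genes that the deposited tables list for both hippocampus and cortex of BK KO mice, which lack kcnma1, the gene of the pore-forming subunit of the BK potassium channel. They were chosen by name, with earlier results of these data known, and are 5 of the 7 collagen genes listed in both tables. In all, 1017 genes were listed in at least 1 of the tables, of which 196 were listed in both. The 12 libraries fall into 4 groups of 3: hippocampus of WT mice, hippocampus of BK KO (kcnma1-/-) mice, cortex of WT mice and cortex of BK KO mice. Cortex and hippocampus are described as taken from the same mice, so the tissues are not independent repeats. The labels do not say which libraries share a mouse. All mice were of the C57BL/6 strain and are described as adult. The study's methods give 3-month-old males for its experiments on BK KO mice, without naming sequencing among them. The knockout came from CRISPR/Cas9 editing and is a short frameshift deletion inside an exon, carried by all cells of the mouse, and the WT mice were littermates from heterozygous pairs. Whole tissue was frozen and the RNA of all its cells was pooled, so fewer cells of a type and less RNA per cell cannot be told apart.

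Collagens are matrix proteins in which 3 chains wind into a triple helix, and this shape requires that glycine recurs in each triplet of residues. Fibrillar collagens such as type V assemble into fibers, fibril-associated collagens such as types XIV and XIX attach to other fibers or to membranes, type VI forms beaded filaments, and type XV sits where basement membranes meet the surrounding matrix. In the brain, most fibrillar collagen lies in the meninges and around blood vessels, while collagen XIX is also made by neurons and is known for a role in forming inhibitory synapses in hippocampus.

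The glycine rule can be read directly in the coding sequence of the genes, since all glycine codons start with GG. A repeat is 1 glycine codon followed by any 2 codons, and the first 6 repeats of the longest uninterrupted run are shown for each gene, because this is what the genes share and the length of the run differs between them. They were taken from GENCODE release M21 on GRCm38 and are printed in the direction of the gene, with the glycine codons in capitals.

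Col5a1 (chr2:27964080-27965259, plus strand, coding exons 14 and 15): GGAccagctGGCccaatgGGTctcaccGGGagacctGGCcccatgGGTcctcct

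Col19a1 (chr1:24300593-24301301, minus strand, coding exons 39 and 40): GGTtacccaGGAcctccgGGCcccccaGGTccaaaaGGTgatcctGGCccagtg

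Col15a1 (chr4:47270324-47270377, plus strand, coding exon 13): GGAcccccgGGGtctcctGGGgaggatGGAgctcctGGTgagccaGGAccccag

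Col6a4 (chr9:106033965-106040607, minus strand, coding exons 19 and 20): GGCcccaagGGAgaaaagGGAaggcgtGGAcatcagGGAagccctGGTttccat

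Col14a1 (chr15:55471708-55472971, plus strand, coding exons 38 and 39): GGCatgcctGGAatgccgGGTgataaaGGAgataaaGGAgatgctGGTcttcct

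Exons are numbered from the 5′ end of the transcript, and where 2 exons are named the coordinates span the intron between them. The longest run holds 338 repeats in Col5a1, 57 in Col19a1, 45 in Col6a4, 32 in Col14a1 and 30 in Col15a1. Runs of at least 6 repeats take up 58.0% of the coding sequence of Col5a1 and 59.5% of that of Col19a1, against 24.2% in Col15a1, 14.4% in Col6a4 and 14.0% in Col14a1. In Col5a1 338 of the 355 repeats in such runs lie in a single run, whereas Col19a1 spreads 225 repeats over 11 runs. The transcripts are long, between 4266 bases for Col19a1 and 8406 bases for Col5a1, with 38 to 66 exons and a GC content between 49.7% (Col14a1) and 58.0% (Col5a1). Exons of Col5a1 overlap those of 2810430I11Rik and Gm13372 on the opposite strand, exons of Col6a4 overlap those of Gm36993 and Gm47575, and exons of Col15a1 overlap those of Gm12426. The library kit does not mark strand, so reads of these genes and their antisense partners cannot be told apart. No such overlap was found for Col14a1 and Col19a1.

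The deposited tables list only the genes that the authors' own comparison of the same libraries had called, by an unadjusted p under 0.05 and a log2 fold change beyond 0.58. A listed gene therefore had to differ between genotypes, and the values for BK KO against WT mice describe how large and how even the difference was. They are not an independent test of it. Adjusted p-values here run over the listed genes only, and so do not correct for all genes measured. Each gene has 1 value per library, taken to be FPKM (sequenced fragments, corrected for the length of the transcript and the size of the library). The transcript lengths behind these values are not given, and levels compared between genes depend on them. The sequencing depth is unknown. Differences were fitted with limma on log2(FPKM + 1) over all genes of a table. This scale understates changes, most of all for genes near or below 1 FPKM. Past the threshold means an unadjusted p under 0.05 with a log2 difference beyond 0.58. The targeted gene Kcnma1 (GRCm38 chromosome 14, 23289431 to 24014491, minus strand) was at 9.67 to 11.3 FPKM in WT and 2.54 to 2.82 FPKM in BK KO hippocampus, and at 9.82 to 11.98 FPKM in WT and 2.76 to 3.09 FPKM in BK KO cortex. Its log2 difference was -1.63 (SE 0.10) in both tissues (limma, adjusted p = 0.000844 and 0.00178), so each library matched its labelled genotype. Markers of neurons were too few among the listed genes to check the labelled tissue.

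All 5 collagen genes were lower on average in BK KO mice in both tissues. Mean levels in BK KO mice were between 36.6% (Col15a1) and 53.1% (Col19a1) of the WT mean in hippocampus, and between 23.2% (Col6a4) and 58.5% (Col19a1) in cortex. Col5a1 and Col15a1 were past the threshold in hippocampus, 2 of 5 genes, against 21.9% of all 652 listed genes that were past it in the lower direction, 20.7% in the higher direction and 42.6% in either. The same 2 of 5 genes were past it in cortex, where the shares of all 561 listed genes were 20.0%, 10.9% and 30.8%. With a pseudocount of 0.1, which weighs low genes more, 5 of 5 genes were past the threshold and lower in each tissue. On that scale 46.2% of the listed hippocampus genes were past it and lower and 37.9% past it and higher, and in cortex 51.7% and 21.0%. The 3 BK KO libraries lay below the 3 WT libraries for 5 of 5 genes in hippocampus, where 47.1% of all listed genes had groups separated in this direction and 32.8% in the other. In cortex this held for 3 of 5 genes, against 56.3% and 24.2% of all listed genes. A lower mean, whatever the p, was found for 58.3% of the listed genes in hippocampus and 70.4% in cortex. The median log2 difference of the 5 genes was -0.56 in hippocampus and -0.50 in cortex, beside -0.27 and -0.33 over all listed genes.

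**Figure D1:**
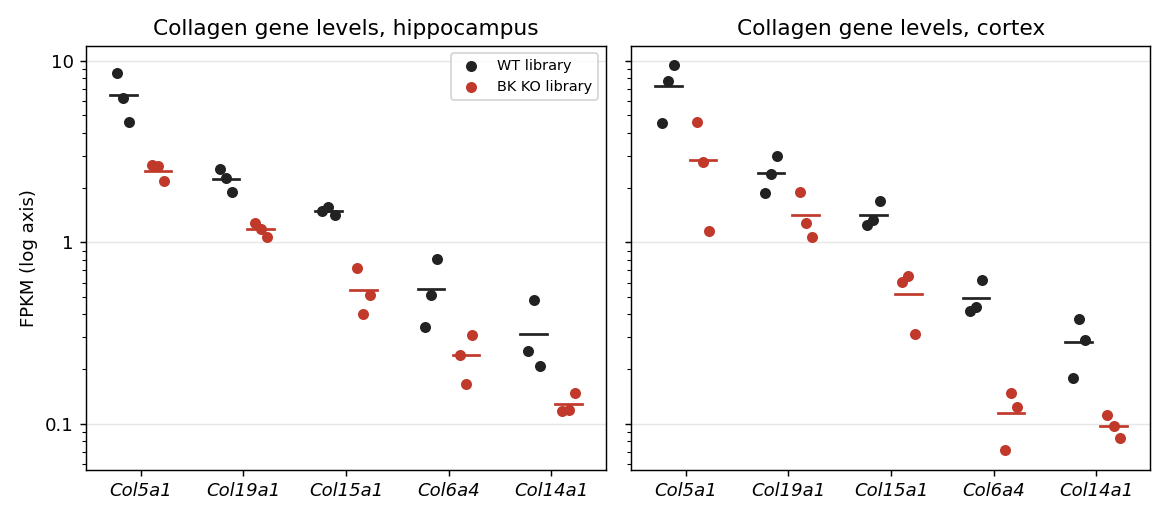
FPKM of the 5 collagen genes in each library (log axis), in hippocampus (left) and cortex (right), with WT libraries in black, BK KO libraries in red, 3 per group, and a bar at each group mean. The BK KO points lie below the WT points for all 5 genes in hippocampus, and in cortex the groups of Col5a1 and Col19a1 touch.

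Col5a1 encodes the alpha 1 chain of type V collagen, a minor fibrillar collagen that starts type I fibrils and limits their width. It had the highest mean FPKM of the 5 genes in every group. In hippocampus the WT libraries were at 8.52, 6.20 and 4.63 FPKM and the BK KO libraries at 2.65, 2.63 and 2.17 FPKM. The groups did not overlap, and the BK KO libraries were much closer to each other than the WT libraries. The mean went from 6.45 ± 1.96 (SD, n = 3) to 2.48 ± 0.274 (SD, n = 3), a log2 difference of -1.07 (SE 0.20; limma, adjusted p = 0.0150). In cortex the WT libraries were at 4.54, 7.70 and 9.46 FPKM and the BK KO libraries at 4.57, 2.76 and 1.15 FPKM. Here the highest BK KO library reached the lowest WT library, and the BK KO libraries spanned a wide range. The cortex mean went from 7.23 ± 2.49 (SD, n = 3) to 2.83 ± 1.71 (SD, n = 3), and the log2 difference was -1.16 (SE 0.40; 95% interval -2.13 to -0.19; limma, adjusted p = 0.0458). This call was lost when WT replicate 2 (-1.10), WT replicate 3 (-0.96), BK KO replicate 2 (-1.20) or BK KO replicate 3 (-0.80) was left out. In hippocampus the difference was past the threshold whichever library was left out, between -1.25 and -0.87. The authors' mean normalized read counts were 1196 in WT and 469 in BK KO hippocampus, and 1389 and 573 in cortex, the highest of the 5 genes.

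Col19a1 encodes the chain of type XIX collagen, the member of the group known from neurons. Its WT libraries in hippocampus were at 2.53, 2.26 and 1.90 FPKM and its BK KO libraries at 1.28, 1.19 and 1.08 FPKM. The groups were separate and both narrow, with means of 2.23 ± 0.316 (SD, n = 3) and 1.18 ± 0.105 (SD, n = 3). The log2 difference of -0.56 (SE 0.11; limma, adjusted p = 0.0158) lay just short of the required size, and it passed without WT replicate 3 (-0.64) or without BK KO replicate 1 (-0.59). In cortex the WT libraries were at 1.87, 2.39 and 2.97 FPKM and the BK KO libraries at 1.88, 1.27 and 1.08 FPKM. As for Col5a1, BK KO replicate 1 reached WT replicate 1, and the other BK KO libraries were lower than every WT library. The cortex means were 2.41 ± 0.555 (SD, n = 3) and 1.41 ± 0.421 (SD, n = 3), with a log2 difference of -0.50 (SE 0.17; limma, adjusted p = 0.0458) that was past the threshold without WT replicate 1 (-0.62) or without BK KO replicate 1 (-0.64). With a pseudocount of 0.1 the differences were -0.85 in hippocampus and -0.75 in cortex, both past the threshold. Col19a1 kept the largest part of its WT level among the 5 genes in both tissues. The authors' mean normalized read counts were 802 and 408 in WT and BK KO hippocampus, and 917 and 516 in cortex.

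Col15a1 encodes the chain of type XV collagen, a proteoglycan that links basement membranes, those of blood vessels included, to collagen fibers. Its WT libraries in hippocampus were at 1.49, 1.57 and 1.41 FPKM, and its BK KO libraries at 0.720, 0.405 and 0.511 FPKM. In cortex the WT libraries were at 1.25, 1.33 and 1.68 FPKM and the BK KO libraries at 0.600, 0.654 and 0.311 FPKM. The highest BK KO library was well under the lowest WT library in both tissues, and the WT level hardly varied in hippocampus. The mean went from 1.49 ± 0.0784 (SD, n = 3) to 0.545 ± 0.161 (SD, n = 3) in hippocampus, a log2 difference of -0.69 (SE 0.11; limma, adjusted p = 0.0142). In cortex it went from 1.42 ± 0.230 (SD, n = 3) to 0.522 ± 0.184 (SD, n = 3), a log2 difference of -0.67 (SE 0.13; limma, adjusted p = 0.0217). The hippocampus call held whichever library was left out, and the cortex call was lost only without BK KO replicate 3 (-0.57). The authors' mean normalized read counts were 192 and 70.7 in WT and BK KO hippocampus, and 198 and 78.9 in cortex.

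Col6a4 encodes a chain of type VI collagen, the microfilament collagen found close to basement membranes. Its WT libraries in hippocampus were at 0.341, 0.514 and 0.811 FPKM and its BK KO libraries at 0.239, 0.166 and 0.309 FPKM. The groups were separate, by a small gap. In cortex the WT libraries were at 0.416, 0.442 and 0.618 FPKM and the BK KO libraries at 0.0713, 0.147 and 0.124 FPKM, where the gap was wide. The mean was 0.555 ± 0.238 (SD, n = 3) in WT and 0.238 ± 0.0715 (SD, n = 3) in BK KO hippocampus, and the log2(FPKM + 1) difference was -0.32 (SE 0.14; limma, adjusted p = 0.0646). In cortex the means were 0.492 ± 0.110 (SD, n = 3) and 0.114 ± 0.0389 (SD, n = 3), and the difference was -0.42 (SE 0.09; limma, adjusted p = 0.0217). With a pseudocount of 0.1 the differences were -0.91 and -1.47, both past the threshold. In cortex a fall to 0 in every BK KO library would give -0.57 on the log2(FPKM + 1) scale, so the gene could not have passed there. The authors' mean normalized read counts were 120 and 54.8 in WT and BK KO hippocampus, and 109 and 22.7 in cortex.

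Col14a1 encodes the chain of type XIV collagen, which binds to the surface of type I fibrils, and it had the lowest mean FPKM of the 5 genes. Its WT libraries in hippocampus were at 0.251, 0.478 and 0.207 FPKM and its BK KO libraries at 0.118, 0.118 and 0.147 FPKM. In cortex the WT libraries were at 0.178, 0.379 and 0.288 FPKM and the BK KO libraries at 0.112, 0.0968 and 0.0834 FPKM. In both tissues the BK KO libraries lay close together below a spread-out WT group. The means were 0.312 ± 0.145 (SD, n = 3) and 0.128 ± 0.0166 (SD, n = 3) in hippocampus, with a log2(FPKM + 1) difference of -0.21 (SE 0.11; limma, adjusted p = 0.115). In cortex they were 0.282 ± 0.1003 (SD, n = 3) and 0.0975 ± 0.0145 (SD, n = 3), with a difference of -0.22 (SE 0.09; limma, adjusted p = 0.0600). A fall to 0 would give -0.39 in hippocampus and -0.35 in cortex, so on this scale Col14a1 could not reach the threshold at all. With a pseudocount of 0.1 its differences of -0.80 and -0.92 were past it. The authors' mean normalized read counts were 61.6 and 25.2 in WT and BK KO hippocampus, and 59.2 and 18.9 in cortex.

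In each single gene, 3 libraries against 3 cannot give a permutation p under 0.1. The exact two-sided permutation test of the mean FPKM gave p = 0.1 for all 5 genes in hippocampus and for Col6a4, Col14a1 and Col15a1 in cortex, and p = 0.2 for Col5a1 and Col19a1 in cortex.

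The order of the mean FPKM was Col5a1, Col19a1, Col15a1, Col6a4 and Col14a1 in all 4 groups. The ranges of neighbours in that order were separate except for Col6a4 and Col14a1 in WT hippocampus and BK KO cortex, and for Col5a1 and Col19a1 in BK KO cortex. The levels of hippocampus and cortex come from separate tables and were not compared by a test. The genotype differences were compared between tissues over the 196 genes listed in both tables. This fit treated the 12 libraries as independent, although the methods describe both tissues as taken from the same mice. The log2(FPKM + 1) difference in hippocampus minus that in cortex was 0.01 for Col14a1 (95% interval -0.31 to 0.32), -0.02 for Col15a1 (-0.39 to 0.36), -0.06 for Col19a1 (-0.52 to 0.41), 0.09 for Col5a1 (-0.92 to 1.11) and 0.10 for Col6a4 (-0.26 to 0.46). The shared genes were called by the authors in both tissues, so genes whose genotype difference was seen in 1 tissue only had been removed before this fit, and the counts do not show that the tissues act alike. None of these differences between tissues passed (limma, adjusted p = 0.998 for each), and 0 of the 196 genes (0.0%) reached an unadjusted p under 0.05. The scale compresses the values of the less abundant genes, and the interval of Col5a1 allows a difference of about its own size in either direction.

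Within groups the 5 genes varied together to different degrees. Col5a1 and Col19a1 ranked the 3 libraries in the same order in all 4 groups: the Pearson correlation of log2(FPKM + 1) over the 6 libraries of a tissue was 0.99 in hippocampus and 0.98 in cortex, and 0.97 and 0.94 after the group means were subtracted. These points share libraries and the genotype difference, and 6 libraries with 2 group means removed leave few degrees of freedom, so the values are descriptions. In WT cortex replicate 1 and BK KO cortex replicate 1, from opposite genotypes, Col5a1 was at 4.54 and 4.57 FPKM and Col19a1 at 1.87 and 1.88 FPKM. Col6a4 ran against Col5a1 in hippocampus: WT replicate 1 had the highest Col5a1 and the lowest Col6a4, and WT replicate 3 the reverse. Their correlation was 0.45 over the 6 hippocampus libraries and -0.97 within groups, whereas in cortex it was 0.77 and 0.19. Within groups Col14a1 had correlations with Col5a1 of 0.08 in hippocampus and 0.55 in cortex, and with Col19a1 of 0.19 and 0.51. Col15a1 and Col5a1 had 0.19 in hippocampus and 0.85 in cortex.

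**Figure D2:**
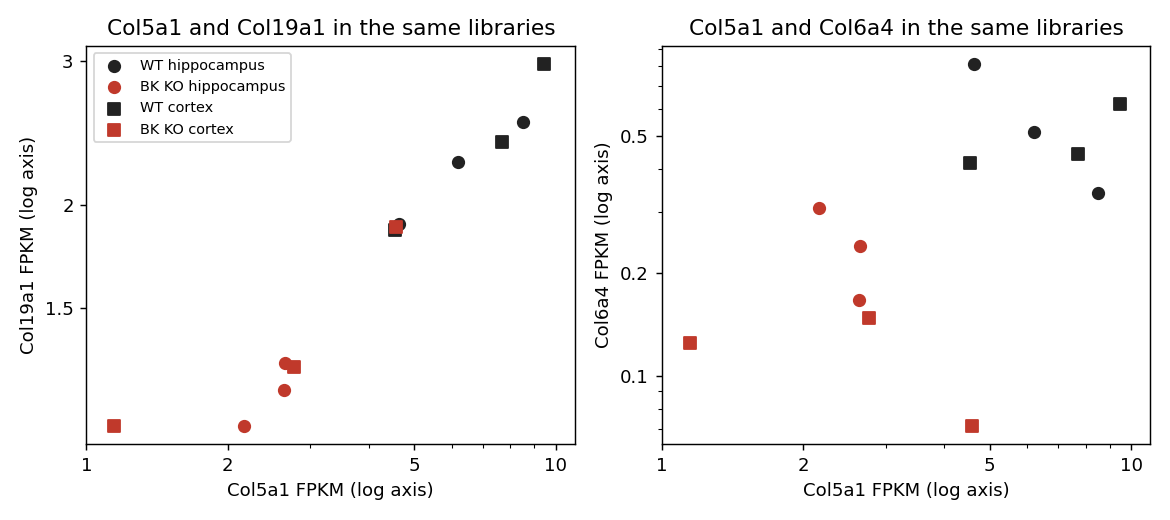
Col5a1 FPKM against Col19a1 FPKM (left) and against Col6a4 FPKM (right), on log axes, with 1 point per library (circles hippocampus, squares cortex, black WT, red BK KO). Col19a1 rises with Col5a1 across the libraries of both tissues, and Col6a4 falls as Col5a1 rises among the 3 WT hippocampus libraries.

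Single libraries carried part of the spread in cortex. WT cortex replicate 1 had the lowest WT value of all 5 collagen genes, while 37.3% of the listed cortex genes had their lowest WT value there. BK KO cortex replicate 3 had the lowest BK KO value of 4 of the 5, against 45.8% of the listed genes. In hippocampus WT replicate 3 was the lowest WT library for 4 of the 5 genes, against 36.8% of the listed genes. Without WT cortex replicate 1 the log2 differences in cortex were -1.42 for Col5a1, -0.46 for Col6a4, -0.28 for Col14a1, -0.73 for Col15a1 and -0.62 for Col19a1, and 3 of 5 genes were past the threshold. Leaving out the lowest WT library enlarges a fall by construction. Without BK KO cortex replicate 3, 0 of 5 genes were past the threshold. In the main fit 173 of the 561 listed cortex genes were past it. That count was 168 without WT replicate 1 and 148 without BK KO replicate 3.

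By the likeness of their values over the 6 libraries of a tissue, among genes with a mean of at least 1 FPKM, the nearest genes to Col5a1 in hippocampus were Col19a1 (r = 0.99), Pnpla3 (0.99) and Psrc1 (0.98), and in cortex Pnisr (0.999), Ssh3 (0.998) and Uggt2 (0.996). Pnpla3, Psrc1 and Tie1, an endothelial receptor kinase, were nearest to Col19a1 in hippocampus (0.992 to 0.997), and Lime1, Prpf39 and Aifm3 in cortex (0.994 to 0.995). Col15a1 was nearest to Sytl2, Coro6 and Msantd2 in hippocampus (0.99 each) and to Plxna3, Zscan26 and Lrrc16b in cortex (0.99 each). Col6a4 was nearest to Adamtsl4, P2rx4 and Prr18 in hippocampus (0.98 each) and to Kif13b, Gmip and Mettl17 in cortex (0.98 to 0.99). Col14a1 was nearest to Dock6 (0.996), Thpo (0.97) and Alpl (0.94) in hippocampus and to Gabpb2, Suv420h2 and Trip6 in cortex (0.98 each). No gene was among the 3 nearest of the same collagen gene in both tissues. Every candidate had been called between genotypes in these same libraries, so the correlations hold the shared genotype difference. After the group means were subtracted they ran from 0.82 (Col6a4 and Mettl17, cortex) to 0.999 (Col5a1 and Ssh3, cortex). They are the highest among many candidates over 6 libraries, and are descriptions.

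Counting other family members, 12 collagen genes were listed in at least 1 table and 7 in both. In hippocampus 8 were listed, 7 of them lower on average and 3 past the threshold in that direction, beside 58.3% and 21.9% of all listed genes. In cortex 11 were listed, all 11 lower on average, and 5 past the threshold, beside 70.4% and 20.0%. With a pseudocount of 0.1, 7 of 8 and 10 of 11 were past it and lower, beside 46.2% and 51.7%. The remaining hippocampus gene, Col10a1, was past it and higher on that scale, beside 37.9% of all listed genes. Col11a1, a fibrillar chain that assembles with type V collagen, was at 2.64, 1.42 and 2.12 FPKM in WT and 1.31, 1.35 and 0.875 FPKM in BK KO hippocampus, a log2 difference of -0.48 (SE 0.18) that was not past the threshold. In cortex it was at 1.23, 1.56 and 1.46 FPKM in WT and 0.603, 0.746 and 0.376 FPKM in BK KO mice, and the log2 difference of -0.62 (SE 0.12) passed. Its partner chain Col11a2, listed for cortex only, was at 3.55 to 4.91 FPKM in WT and 1.65 to 2.58 FPKM in BK KO mice (log2 difference -0.75, past the threshold).

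Col16a1, a fibril-associated collagen, was at 3.24 to 4.58 FPKM in WT and 1.23 to 2.07 FPKM in BK KO cortex (log2 difference -0.80, past the threshold). Col26a1 passed in hippocampus, with 1.64 to 2.24 FPKM in WT and 0.679 to 1.04 FPKM in BK KO mice (log2 difference -0.75), while in cortex its groups overlapped (log2 difference -0.46, not past the threshold). The fibrillar Col24a1 (-0.55) and the transmembrane Col13a1 (-0.12) were lower in BK KO cortex without passing. The exception in direction was Col10a1, the cartilage collagen, whose value was listed as 0 in all 3 WT hippocampus libraries. The BK KO hippocampus libraries had 0.173, 0.736 and 0.182 FPKM of it, and no fold is given. Col1a1, Col1a2 and Col3a1, the main fibrillar collagens of connective tissue, were listed in neither table, so their levels are unknown here. The listed collagens other than the 5 had the same direction in cortex, 6 of 6, and in hippocampus 2 of 3.

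**Figure D3:**
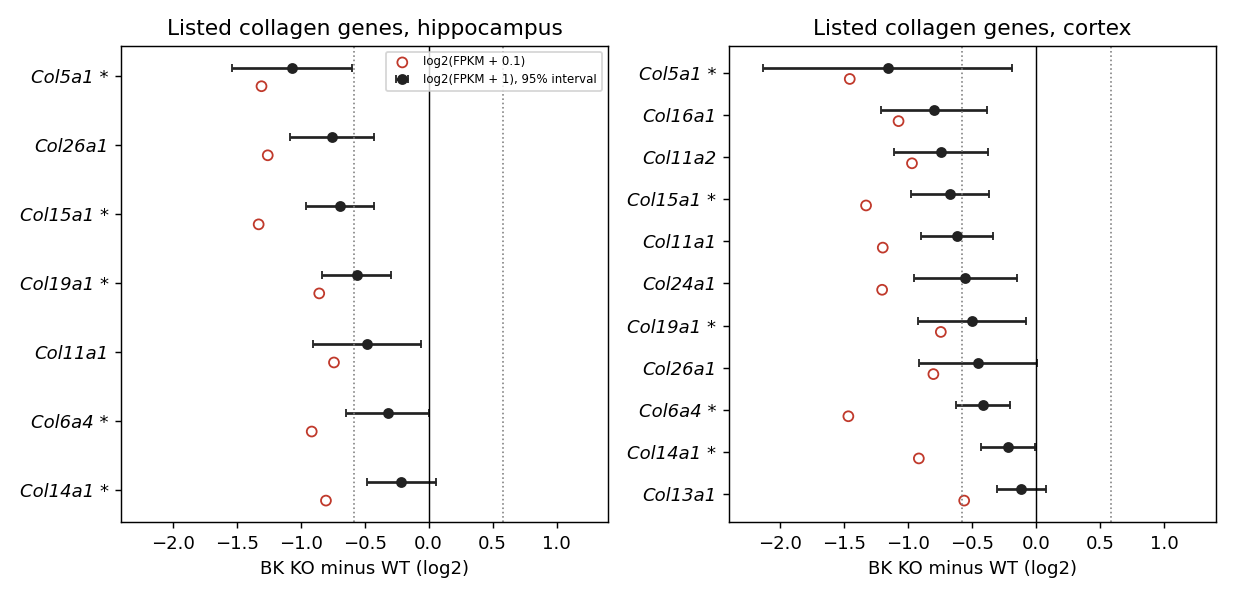
Log2 difference between BK KO and WT mice for each listed collagen gene with a WT value above 0, in hippocampus (left) and cortex (right), with asterisks at the 5 genes described here. Filled points with bars are limma estimates on log2(FPKM + 1) with 95% intervals, open red circles use a pseudocount of 0.1, and dotted lines mark 0.58 in each direction. All points are below 0, and every open circle lies to the left of its filled point. Col10a1, higher in BK KO hippocampus, is not drawn.

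Genes that act on collagen were read from fixed lists. Of 32 genes of collagen biosynthesis and assembly, 3 were listed in each tissue, and they did not share a direction. P3h3, a prolyl hydroxylase of collagen chains, fell in hippocampus from 5.97, 6.92 and 5.84 FPKM to 4.47, 3.06 and 3.85 FPKM (log2 difference -0.60) and in cortex by 0.69 on the log2 scale. Sparc, a secreted collagen-binding protein, rose in hippocampus from 60.8, 99.8 and 83.0 FPKM to 119, 169 and 219 FPKM (log2 difference 1.04) and in cortex by 0.63. The cross-linking enzyme Lox in hippocampus (0.29) and the procollagen enhancer Pcolce2 in cortex (0.50) were higher without passing.

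Of 84 matrix glycoproteins and proteoglycans, 6 were listed in hippocampus and 9 in cortex. Only Podn was listed in both, and it was lower in both, so the directions below come from mostly different genes. In hippocampus 4 rose: the calcium-binding Smoc1 (log2 difference 1.14), Reln, the layering signal of developing cortex (1.05), Spon1 (0.80) and the cytokine-like Spp1 (0.65), whose groups overlapped. These 4 of 6 were past the threshold and higher, beside 20.7% of all listed hippocampus genes, of which 21.9% were past it and lower. Vtn fell by 0.61, a gene named here after its value was seen, and Podn was lower without passing (-0.52). In cortex all 9 were lower on average, 8 with separate groups, and 3 fell past the threshold: Prelp, an anchor of basement membranes (-0.78), Thbs3 (-0.60) and Mfap4 (-0.58). Podn, a small leucine-rich proteoglycan that binds type I collagen and the fourth named by size, was at -0.46. Of all listed cortex genes 70.4% were lower on average, 56.3% had groups separated in that direction and 20.0% were past the threshold and lower. All 9 cortex genes of this list were past it with a pseudocount of 0.1, beside 51.7%. The difference between tissues was not tested for these lists, since the listed genes are not the same in each table.

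Of 46 receptors for collagen and matrix, 2 were listed in hippocampus and 6 in cortex, and 0 passed the threshold, beside 42.6% and 30.8% of all listed genes in either direction. A pseudocount of 0.1 gave 1 of 2 in hippocampus and 3 of 6 in cortex, all lower. That is near the 46.2% and 51.7% of all listed genes that were past it and lower on that scale. Oscar, a receptor for collagen on myeloid cells (-0.40), and Itga10, the alpha 10 chain of a collagen-binding integrin (-0.21), were lower on average in hippocampus. In cortex Itgam (-0.48, groups overlapping), Itgb4 (-0.41), Itga10 (-0.33) and Itga4 (-0.26) led 5 genes that were lower on average, and the platelet receptor Gp1ba was higher on average. Of 35 matrix proteases and inhibitors, 3 were listed in hippocampus and 0 in cortex. Timp2, an inhibitor of matrix metalloproteinases, rose from 87.7, 80.7 and 67.7 FPKM to 105, 222 and 154 FPKM (log2 difference 0.96), and Plat, the tissue plasminogen activator, rose by 0.66. These were 2 of 3 past the threshold and higher, beside 20.7% of all listed hippocampus genes. None of the 15 genes of the TGF-beta pathway, which drives collagen genes in fibroblasts, was listed in either table. An unlisted gene was not called by the authors, and its level is unknown here.

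**Figure D4:**
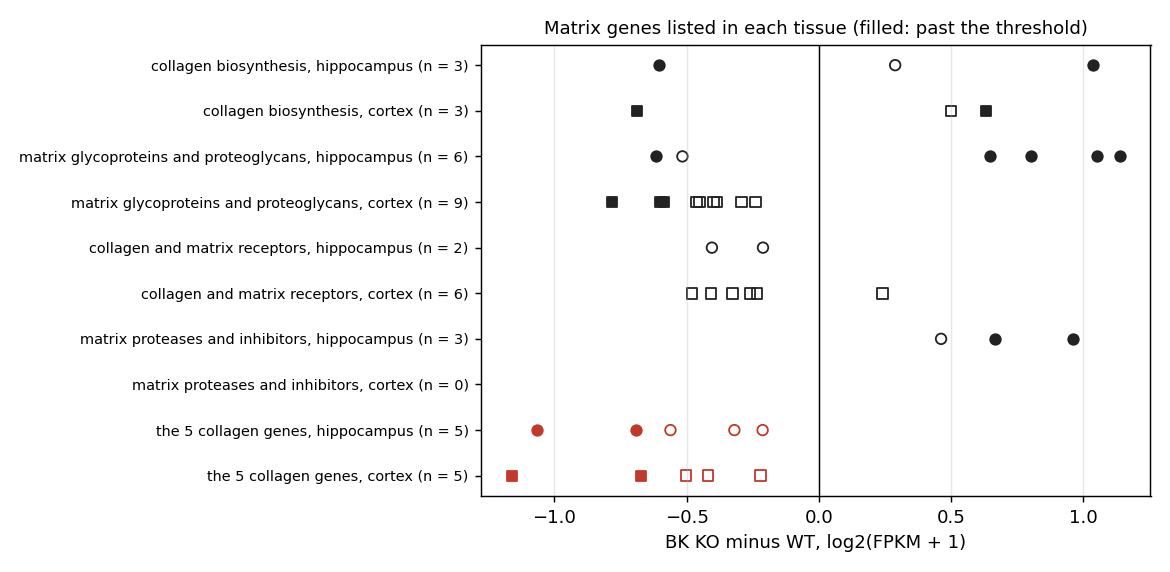
Log2(FPKM + 1) difference between BK KO and WT mice for each listed gene of 4 matrix lists (black) and of the 5 collagen genes (red), with circles for hippocampus, squares for cortex, 1 point per gene and filled points past the threshold. In hippocampus 4 glycoproteins and 2 proteases or inhibitors are filled and to the right of 0, opposite to the collagen genes, and in cortex all 9 glycoproteins lie to the left. Podn is the only gene of the glycoprotein list drawn for both tissues, to the left in each.

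Markers of the cell types that make collagen were listed in small numbers. Of 20 markers of meningeal and perivascular fibroblasts, 1 was listed in hippocampus, Aldh1a2, which rose by 0.76 with overlapping groups, and 2 in cortex, Ogn (-0.45) and Slc22a6 (-0.48), neither past the threshold. The summed level of these was 4.31 to 5.89 FPKM in WT and 2.17 to 4.02 FPKM in BK KO cortex, and 2.18 to 5.41 FPKM in WT and 5.19 to 7.84 FPKM in BK KO hippocampus. Of 14 markers of pericytes and smooth muscle, 4 were listed in hippocampus and 0 in cortex. Rgs5 (-0.57), Kcnj8 (-0.50), Anpep (-0.34) and Abcc9 (-0.27) were lower without passing, and their sum was 18.6 to 21.3 FPKM in WT and 10.6 to 15.1 FPKM in BK KO hippocampus. Of all listed hippocampus genes 58.3% were lower on average and 21.9% past the threshold and lower. With a pseudocount of 0.1, 2 of the 4 were past it and lower, beside 46.2%. Of 16 endothelial markers, the angiopoietin receptor Tek and its partner Tie1 were listed in both tissues. In hippocampus Tie1 fell by 0.58 and Tek was at -0.54, with a sum of 5.09 to 6.81 FPKM in WT and 3.13 to 3.91 FPKM in BK KO mice, and in cortex both were at -0.46, with a sum of 5.36 to 6.55 FPKM and 3.44 to 4.003 FPKM. With a pseudocount of 0.1, 2 of 2 were past the threshold and lower in each tissue, beside 46.2% in hippocampus and 51.7% in cortex. On that scale Aldh1a2 was past it and higher in hippocampus, beside 37.9%, and Ogn past it and lower in cortex. None of the 12 choroid plexus markers was listed, so their levels are unknown here. The part of vascular and meningeal cells in the collagen values was not tested.

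Skeletal muscle markers moved with genotype in cortex. Of 30, 18 were listed there, all 18 lower on average and 9 past the threshold, led by Tnnc2 (-2.93), Ckm (-2.65), Mylpf (-2.07) and Atp2a1 (-1.90). Of all listed cortex genes 70.4% were lower and 20.0% past the threshold and lower, and with a pseudocount of 0.1 the muscle count was 16 of 18, beside 51.7%. Their summed level was 93.8, 34.4 and 29.0 FPKM in WT and 10.3, 8.64 and 7.89 FPKM in BK KO cortex, while in hippocampus only Cacna1s and Xirp2 were listed, with sums of 0.0869 to 0.161 FPKM in WT and 0.106 to 0.330 FPKM in BK KO mice. WT cortex replicate 1 had the highest muscle sum and the lowest WT value of each of the 5 collagen genes. The labels do not say whether muscle was taken along with the cortex, and its part in the collagen values was not tested.

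Few neural and glial markers were listed: of 18 interneuron markers 2 in hippocampus and 1 in cortex, of 10 astrocyte markers 0 and 1, and of 10 oligodendrocyte markers 1 and 1. The interneuron gene Gad2 rose in both tissues (1.15 and 0.69) and Lamp5 fell in hippocampus (-0.83, groups overlapping). The astrocyte gene Gfap rose in cortex (0.97), the oligodendrocyte gene Opalin fell in both tissues (-0.93 each, groups overlapping in hippocampus), and 0 of 10 microglia markers were listed. Levels of the unlisted markers are unknown, and the part of these cell types in the collagen values was not tested.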

How the data were processed

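Poly-A RNA of 12 libraries (3 per group) was sequenced, read counts were compared by the authors with DESeq, and genes that passed were deposited in 1 table per tissue. The submitters' processing notes name DESeq 1.10.1, DESeq2 and mm9, and the aligner and counter are not given in the sources used here. The deposited value per library was taken as FPKM, a unit that is not named in the tables, because the ratio of the authors' mean to it rose with transcript length (Spearman 0.601 over hippocampus genes and 0.648 over cortex genes). On log axes the slope was 0.72 in hippocampus and 0.91 in cortex, so the ratio was not strictly proportional to the lengths used. The authors' group mean is a normalized signal, the average of size-factor-scaled counts, and is printed with no SD. The deposited columns of fold change, p-value, adjusted p-value and direction hold the authors' own comparison and were not used. Every column with library values bore the name of 1 sample.

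Differences between WT and BK KO mice were fitted per tissue on log2(FPKM + 1) with limma 3.58.1 (R 4.3.3) over all listed genes, with Benjamini-Hochberg adjustment over the table and without a trend or block. The interaction used 196 shared genes. Tables, exact tests and plots were made with pandas 2.3.3, numpy 2.4.6, scipy 1.17.1 and matplotlib 3.10.9 in Python 3.11.15. The alternatives were pseudocounts of 0.1 and 0.01, filters at a mean FPKM of 1 and 0.1, stricter thresholds, a trend, a replicate block and fits that each lacked 1 library. Depth is unknown, so no counting interval is given.

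The genes and lists were chosen with earlier results of these data known. The rule named Kcnma1, the 5 collagen genes, all other listed collagen genes, up to 4 listed genes per list and tissue by size of difference, and the 3 genes most correlated with each of the 5. Locations and sequences are from GENCODE release M21 on GRCm38 and no coordinates were converted. Nothing states that same-numbered WT and BK KO libraries belong together. The limma p-values rest on the spread between these 3 mice per group, pulled toward the spread typical of all listed genes. A few listed genes are not reported here.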

Additional observations from a re-analysis of the deposited data

How the results depend on the processing

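All 115 refitted log2 differences of the 5 collagen genes (other pseudocounts, filters, trend, block, libraries left out) were below 0. The filters, the trend and the block leave these estimates unchanged, and the authors had called these genes in the same libraries. The shared direction was therefore largely fixed in advance. The differences between tissues changed sign in some fits with 1 replicate left out (for Col15a1 also with a pseudocount of 0.1, to 0.0027), with ranges of -0.29 to 0.55 for Col5a1, -0.25 to 0.13 for Col19a1, -0.12 to 0.11 for Col15a1 and -0.05 to 0.04 for Col14a1, while that of Col6a4 stayed above 0, and none passed the test. With a pseudocount of 0.1 the listed genes past the threshold went from 278 to 548 in hippocampus and from 173 to 408 in cortex, and with 0.01 to 537 and 421, while the collagen genes went from 2 to 5 in each tissue with either. A log2 difference beyond 1 left 35 and 25 listed genes and 1 collagen gene in each tissue. A filter at a mean FPKM of 1 left 1 collagen gene past the threshold in cortex, since Col15a1 was then not tested. Leaving out each library gave 230 to 282 listed genes and 2 to 3 collagen genes in hippocampus, and 135 to 180 and 0 to 3 in cortex, with 1 collagen gene without WT replicate 2, WT replicate 3 or BK KO replicate 2 and 0 without BK KO replicate 3. An adjusted p under 0.05 in place of an unadjusted one left 262 and 154 listed genes and 2 collagen genes in each tissue. That adjustment runs over genes the authors had already called, so most of them were bound to stay.

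Deviations from the group means of same-numbered WT and BK KO libraries had correlations of -0.07 to 0.08 in hippocampus and -0.24 to 0.12 in cortex, so the numbers were not taken as pairs. The replicate block gave 272 and 165 listed genes, 2 collagen genes in hippocampus and 1 in cortex, where Col5a1 had an unadjusted p of 0.0593 and an adjusted p of 0.0909 (limma), and it changed no other call. Between hippocampus and cortex of the same genotype and number the correlations were 0.00 to 0.49 in WT and 0.51 to 0.66 in BK KO mice. With that number as a block, 0 collagen genes differed between the tissues. Genes near 0 FPKM are limited by an unknown depth.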
